A study of Mus musculus with 2 samples.

Results

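Binding of p300 was examined in 3 windows of the mouse genome (mm9) named for genes of class III POU factors: the Pou3f2 window on chromosome 4 from 22.2 to 23.2 Mb, the Pou3f3 window on chromosome 1 from 42.4 to 43.0 Mb, and the Pou3f1 window on chromosome 4 from 124.2 to 124.5 Mb. A listed p300 peak was taken as a member when its midpoint lay in a window, which gave 24 of the 6383 listed peaks, 22 of the 2786 in the midbrain list and 2 of the 3597 in the heart list. The windows were chosen by where the deposited lists place midbrain and heart peaks, the Pou3f2 window because it holds the longest run of midbrain peaks, so their peak numbers are a description. The tissues were heart and midbrain of CD-1 embryos at embryonic day 11.5, and chromatin bound by an antibody to p300 was sequenced as 1 library per tissue, from tissue pooled from about 150 embryos of both sexes. No genetic change or treatment is named for either tissue. The labels' shared protocol names forebrain, midbrain and limb but not heart, so the heart dissection is not described. With 1 library per tissue there is no replicate check and no p-value, and every statement is about these libraries.

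Class III POU factors are transcription factors without introns in their coding sequence, and each binds DNA through a POU-specific domain joined to a homeodomain. Pou3f2 and Pou3f3, also called Brn2 and Brn1, act in neural progenitors and newborn neurons, often together with SOX factors, and share much of their function. Pou3f1, also called Oct6, is known from early embryonic ectoderm, skin and the Schwann cells that form myelin. p300 is a histone acetyltransferase and coactivator found at many active enhancers, so a p300 peak marks a candidate regulatory region and does not by itself name its target gene.

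By gene order on GRCm38, the neighbouring protein-coding genes are Fbxl4 and Mms22l for Pou3f2, Tmem182 and Mrps9 for Pou3f3, and Rragc and Utp11 for Pou3f1. The peaks are on mm9 and the gene table is on GRCm38, so no distance from a peak to a gene is given, and whether a peak acts on the POU gene of its window was not tested. The promoters of the genes whose windows held midbrain peaks are shown as the proximal control sequence of the genes that name these windows. They are the 250 bases before the start of Pou3f2 (GRCm38.p6, chr4:22488367-22488616, minus strand) and of Pou3f3 (GRCm38.p6, chr1:42695518-42695767, plus strand), from RefSeq, 5′ to 3′, with matches to CCAAT in capitals.
Pou3f2: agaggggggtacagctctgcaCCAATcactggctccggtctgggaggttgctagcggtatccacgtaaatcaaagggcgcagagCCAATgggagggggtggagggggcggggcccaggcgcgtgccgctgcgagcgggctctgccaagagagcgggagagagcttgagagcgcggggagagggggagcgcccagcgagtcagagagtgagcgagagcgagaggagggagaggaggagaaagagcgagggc
Pou3f3: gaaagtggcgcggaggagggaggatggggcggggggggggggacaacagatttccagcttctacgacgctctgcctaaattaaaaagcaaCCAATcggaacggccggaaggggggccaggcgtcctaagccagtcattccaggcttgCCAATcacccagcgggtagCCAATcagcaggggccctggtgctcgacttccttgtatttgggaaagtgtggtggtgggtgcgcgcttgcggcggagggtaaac
The Pou3f2 promoter holds 2 matches to CCAAT and the Pou3f3 promoter 3, all on the strand of the gene. Both strands were searched, and 10.1% of the 32851 RefSeq promoters of this length held 2 or more matches and 2.79% held 3 or more. Each of the printed promoters also held 1 match to TTGGCA, a word of NFI sites that 12.3% of promoters held, on the strand opposite to the gene. In the Pou3f3 promoter this match shares bases with a CCAAT match. Neither held the octamer ATGCAAAT (in 1.60% of promoters), the homeodomain word TAATTA (4.84%), the SOX words ACAAAG (16.5%) and ACAATG (10.7%) or the E-box CAGCTG (13.001%). These matches are descriptions of the letters. Because the builds differ, the promoters were not placed among the peaks.

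The libraries differ in depth. With 5869671 aligned reads the midbrain library was 4.50 times as deep as the heart library with 1303861. Read counts were scaled to 1000000 aligned reads per library (rpm), so a single read equals 0.767 rpm for heart and 0.170 rpm for midbrain. Ratios below are midbrain over heart rpm with exact conditional binomial 95% intervals. A peak was called when its interval excluded 1. Intervals and floors cover counting error only and not variation between libraries. The deposited reads hold no repeated position and strand, but amplified reads carry no molecular identifiers and need not be independent. A count of 0 heart reads still allows 3 reads, or 2.30 rpm.

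The windows split by tissue. The Pou3f2 window held 16 midbrain peaks and 0 heart peaks, the Pou3f3 window 6 midbrain peaks and 0 heart peaks, and the Pou3f1 window 0 midbrain peaks and 2 heart peaks. None of the 22 midbrain peaks overlapped a heart peak. Such overlap was rare in the whole midbrain list too, at 155 of 2786 peaks. As a description of scale, 4 of 2561 windows of 1 Mb along chromosomes 1 to 19 and X held 16 or more midbrain peaks, the one around Pou3f2 among them, and 53.8% held none. For the Pou3f3 length of 0.6 Mb, 57 of 4271 windows (1.33%) held 6 or more. Having 2 heart peaks in 0.3 Mb was more usual, at 814 of 8543 windows (9.53%), and 80.0% of windows of that length held no midbrain peak. Holding no heart peak was also usual, at 48.3% of windows of the Pou3f2 length and 61.1% of the Pou3f3 length. The plot of reads in 10 kb steps shows where the signal of each window lies.

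**Figure D1:**
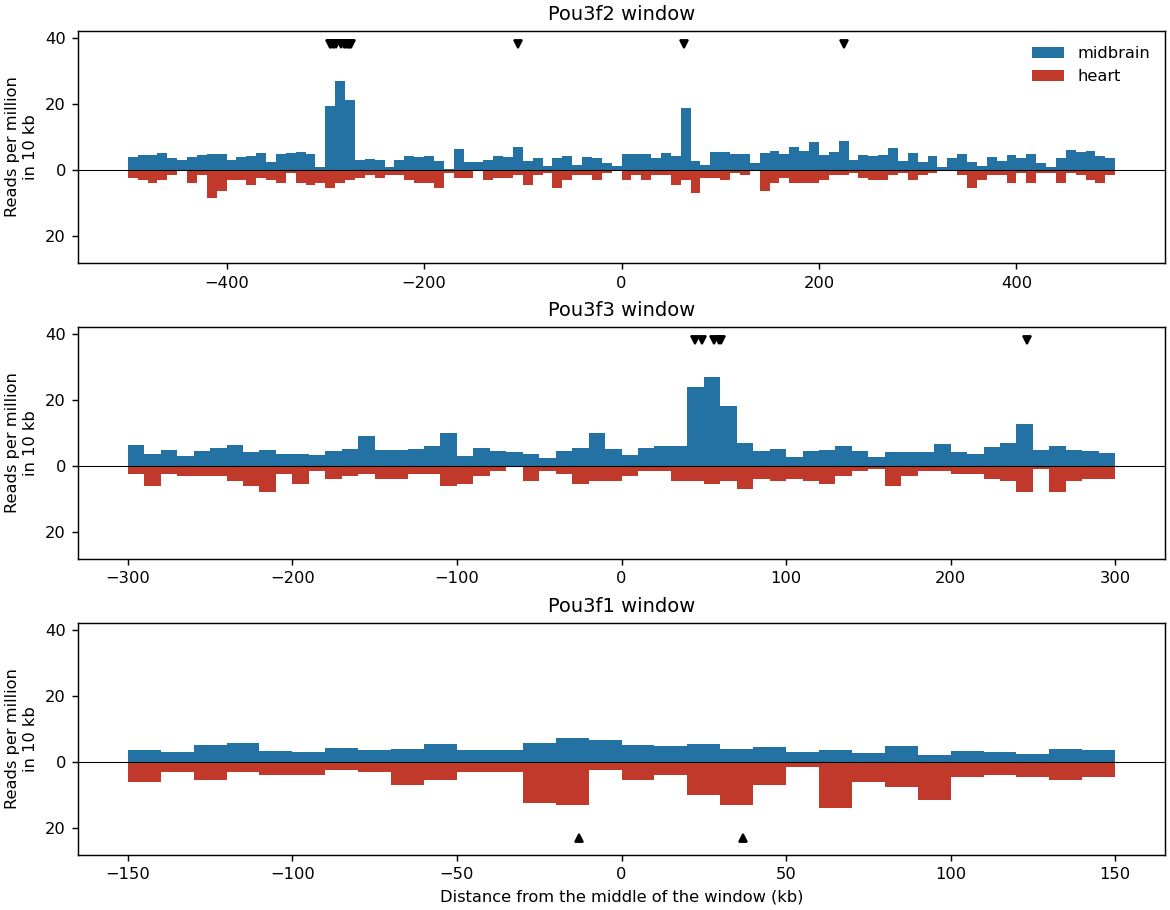
Scaled reads (rpm) in steps of 10 kb across the 3 windows, midbrain upwards and heart downwards, against distance from the middle of the window in kb, with black triangles at listed peaks. Midbrain reads rise in 3 neighbouring steps in the Pou3f2 window and in 3 in the Pou3f3 window, while the fullest step of the Pou3f1 window holds 42 midbrain reads against a median of 22.5.

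In the Pou3f2 window 3 neighbouring steps of 10 kb held 114, 158 and 124 midbrain reads, against a median of 25 over its 100 steps. The same steps held 7, 5 and 4 heart reads, against a median of 3. In the Pou3f3 window the 3 fullest neighbouring steps held 140, 159 and 107 midbrain reads (median 28 over 60 steps) and 6, 7 and 6 heart reads (median 5). The next fullest step of the Pou3f2 window, with 110 midbrain and 4 heart reads, holds the midbrain peak of rank 35.

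The 13 neighbouring midbrain peaks of the Pou3f2 window lay within 22.0 kb on chromosome 4, from 22404154 to 22426142. Runs were built from midbrain peaks whose neighbour lay no more than 50 kb away, and 34 of them had 5 or more peaks. This one had the most listed peaks and the second-shortest span per peak, 1.69 kb. Its first place rests on how the list splits the signal, as 8 of its 12 gaps were under 1 kb. With peaks less than 1 kb apart joined it kept 5 peaks and shared place 9 of the 34 runs. The single peaks were modest: their midbrain ranks ran from 713 to 2402, and the median was 14 midbrain reads, against 17 over the whole midbrain list. The run therefore ranks high by number of peaks as listed and not by the strength of any of them.

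A first group of 5 peaks opened the run. The peak at 22404154 to 22404677 held 13 midbrain and 2 heart reads, and the peak at 22405021 to 22406348, the best ranked of the run at rank 713, held 28 and 1. Then came 22407727 to 22408221 with 13 and 0 reads, 22408389 to 22409173 with 17 and 1, and 22410404 to 22410891 with 13 and 1. Only the second of these was called on the midbrain side, with 4.77 rpm against 0.767 rpm and a ratio of 6.22 (interval 1.03 to 254).

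A single peak at 22416158 to 22416523, 366 bp wide and the narrowest of the windows' midbrain peaks, stood apart with 12 midbrain and 0 heart reads. The last group of 7 peaks began at 22418823 to 22419434 with 14 and 1 reads and 22419624 to 22420554 with 20 and 0. It went on with 22421173 to 22422112 (18 and 0 reads), 22422203 to 22422925 (15 and 0) and 22423681 to 22424432 (14 and 2), and ended with 22424522 to 22425100 (14 and 0) and 22425661 to 22426142 (12 and 0). Of this group the peak with 20 midbrain reads was called, at least 1.48-fold higher in the midbrain against the floor of 3 heart reads. That bound leaves out counting error in the midbrain reads, and the lower end of the ratio's interval was 1.10. Midbrain exceeded heart in rpm of counted reads at all 13 peaks, which follows in part from listing them on midbrain reads. The highest coverage was greater in heart at 22404154 to 22404677 (1.53 against 1.36 rpm) and about equal at 22423681 to 22424432 (1.53 in both). At 11 of the 13 peaks the ratio's interval included 1, as at 2172 of all 2786 midbrain peaks. These 11 held 12 to 18 midbrain reads, and with 18 midbrain and 0 heart reads the interval began at 0.977. None of them could therefore be called on the midbrain side, whatever their heart reads.

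Summed over the run's 13 peaks there were 203 midbrain reads (34.6 rpm) and 8 heart reads (6.14 rpm), a ratio of 5.64 (interval 2.81 to 13.2). The reads came from both strands, 95 plus and 108 minus in the midbrain library.

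Signal in the Pou3f2 run did not stop at the listed edges. Listed peaks covered 41.0% of the run. The deposited coverage track, which counts reads lengthened to 300 bp at every 25 bp, was above 0 over more of it. The share was 97.4% in the midbrain, against 48.6% over the whole window. In the heart it was 16.0%, against 9.575% over the whole window. These shares are not scaled for depth, so they are not compared between the libraries. The 12.98 kb between the 13 peaks held 158 midbrain reads, or 12.2 per kb, against 22.5 per kb in the peaks and 2.37 per kb in the rest of the window outside peaks. The density between peaks was 5.14 times that of the rest of the window (interval 4.35 to 6.04) for midbrain reads. For heart reads, 5 in all, it was 1.15 times (interval 0.370 to 2.70). Positions at least 300 bp, the length of a lengthened read, from any listed peak of the run gave 6.27 times for midbrain reads (interval 5.17 to 7.55).

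The fullest of these gaps was the longest, 5266 bp at 22410892 to 22416157 between the fifth and the sixth peak. It held 88 midbrain reads, 16.7 per kb, and 3 heart reads. Its coverage reached 14 reads around 22413325, above the highest value inside any listed peak of the run, which was 13. Unbroken midbrain coverage ran over 11.6 kb from 22402438 to 22414012, which begins before the first listed peak and is the tenth longest such stretch on chromosomes 1 to 19 and X. The Pou3f3 window held a longer stretch, 12.7 kb on chromosome 1 from 42740963 to 42753637, at place 7.

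**Figure D2:**
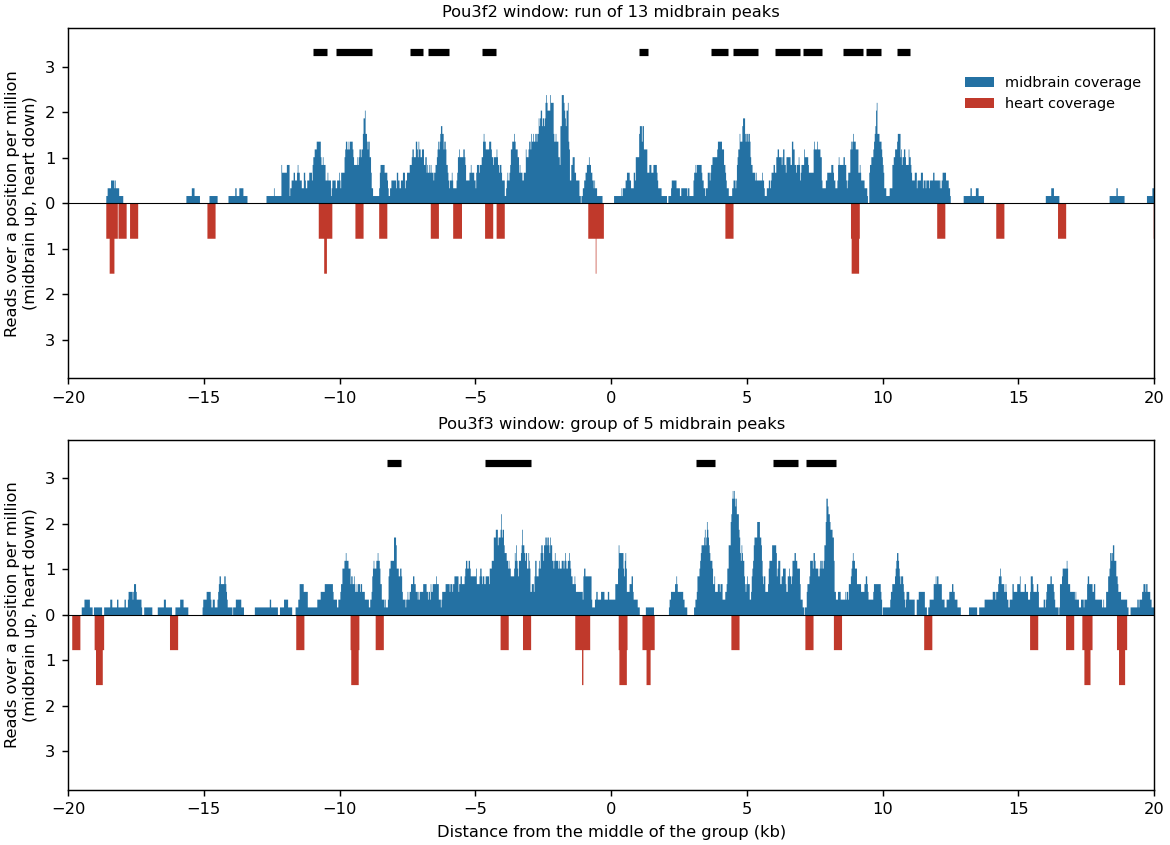
Deposited coverage, in rpm, along 40 kb around the Pou3f2 run and the Pou3f3 group, midbrain upwards and heart downwards, with listed midbrain peaks as black bars, against distance from the middle of the group in kb. Midbrain coverage continues between the bars in both, and the highest midbrain values, 14 and 16 reads before scaling, lie outside the bars.

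The other 3 midbrain peaks of the Pou3f2 window lay alone, with 168577, 166399 and 160543 bp to the neighbour below. The strongest member of all windows was the peak at 22761717 to 22764161, 2445 bp wide and of rank 35 in the midbrain list. It held 78 midbrain reads (13.3 rpm), 42 on the plus and 36 on the minus strand, and 0 heart reads, so the midbrain was at least 5.78-fold higher against the floor, and the lower end of the ratio's interval was 4.59. Its coverage rose to 21 reads in the midbrain and stayed at 0 in the heart over the whole peak. Coverage of at least 0.5 times that height formed 2 stretches of 825 bp together, 33.7% of the listed width.

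The other lone peaks were ordinary. The peak at 22594720 to 22595317 held 13 midbrain reads and the one at 22924705 to 22925408 held 16, both with 0 heart reads and intervals that include 1. Counts this low could not be called on the midbrain side. The run and the rank 35 peak are thus opposite shapes in 1 window, many low peaks in a broad stretch and a single high one.

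In the Pou3f3 window 5 midbrain peaks lay within 16.5 kb on chromosome 1, from 42744335 to 42760870, and the sixth lay 184485 bp further on. They ranked better than those of the Pou3f2 window, with a median rank of 560.5 against 1531 and a median of 26 midbrain reads against 14. From the lower end, the peak at 42744335 to 42744848 held 12 midbrain and 0 heart reads, and the peak at 42747968 to 42749642 held 44 and 2, a ratio of 4.89 (interval 1.27 to 41.6). The third, at 42755727 to 42756422, held 18 and 0 reads.

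The upper end of the group held 2 called peaks side by side. The peak at 42758547 to 42759475 held 23 midbrain and 0 heart reads, at least 1.70-fold higher in the midbrain against the floor, with 1.28 as the lower end of the interval. The peak at 42759770 to 42760870 held 29 and 1, a ratio of 6.44 (interval 1.07 to 263). The distant sixth peak, at 42945356 to 42947070, had the best rank of the window, 173, with 47 midbrain and 3 heart reads and a ratio of 3.48 (interval 1.12 to 17.5). Thus 4 of the 6 Pou3f3 peaks and 3 of the 16 Pou3f2 peaks were called, where 21.6% of all midbrain-list peaks were, and the Pou3f2 share is near that background. The uncalled peaks of both windows held 18 or fewer midbrain reads, too few to be called even with 0 heart reads.

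Midbrain reads also filled the sequence between the listed Pou3f3 peaks. The 11.6 kb between the 5 grouped peaks held 157 midbrain reads, more than the 126 inside them, and 7 heart reads against 3. The midbrain density there was 13.5 per kb, 4.39 times the rest of the window (interval 3.71 to 5.17), and the heart density was 1.27 times the rest (interval 0.506 to 2.65). At 300 bp or more from a listed peak the midbrain value was 4.78 times (interval 3.99 to 5.67). The gap at 42756423 to 42758546, 2124 bp long, was the densest at 22.6 midbrain reads per kb, and its coverage of 16 reads is the highest of the window, listed peaks included.

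Set beside the other dense midbrain runs, these gaps were among the fullest. By midbrain reads per kb between peaks the Pou3f3 group took place 2 and the Pou3f2 run place 3 of the 34 runs. Reads between peaks were 0.527 times as dense as reads in peaks in the Pou3f3 group and 0.540 times in the Pou3f2 run. Runs differ in span, and wide runs hold more empty sequence between peaks, so these places are a description.

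**Figure D3:**
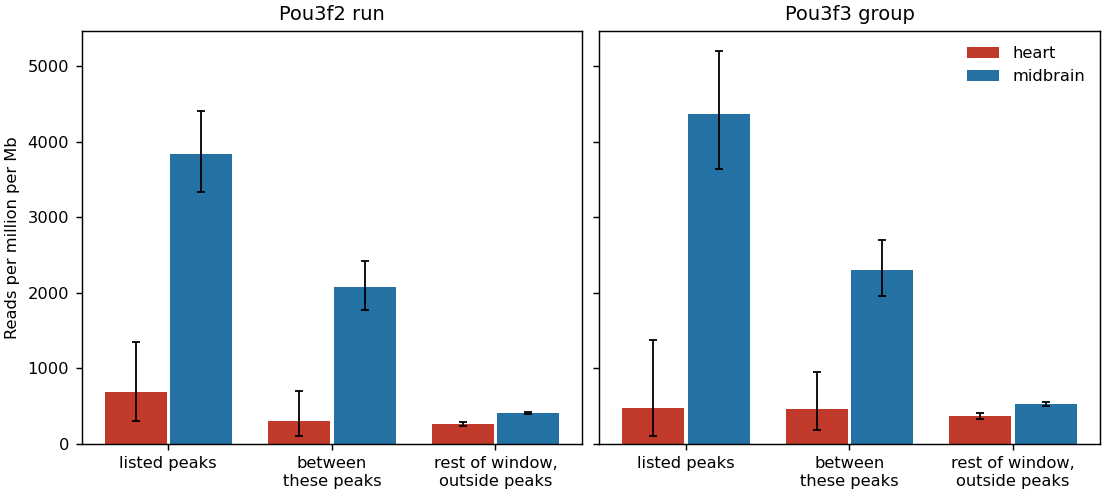
Scaled reads (rpm) per Mb inside the listed peaks of the Pou3f2 run and the Pou3f3 group, between these peaks, and in the rest of each window outside peaks, for both libraries; error bars are exact Poisson 95% intervals of 1 library each. Midbrain bars fall from peaks to gaps to the rest, while heart reads number 8, 5 and 327 in these zones at Pou3f2 and 3, 7 and 276 at Pou3f3. The heart interval of the Pou3f2 listed peaks (294 to 1343) lies just above that of the rest of the window (230 to 287), and the other heart intervals overlap within each window.

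Pooled over the 22 midbrain peaks of both windows there were 483 midbrain reads (82.3 rpm) and 14 heart reads (10.7 rpm), a ratio of 7.66 (interval 4.52 to 14.1). The 16 Pou3f2 peaks gave 8.61 (interval 4.31 to 20.1) and the 6 Pou3f3 peaks 6.40 (interval 2.88 to 17.7), intervals that overlap widely. The Pou3f2 value moved with the ranks kept: its 5 peaks better than the median rank of the list gave 17.7 (interval 4.81 to 147). The midbrain peaks outside these windows gave 3.37 (interval 3.27 to 3.49), and the other runs of at least 5 midbrain peaks gave 3.26 (interval 2.93 to 3.64). With 1 library per tissue a test of this difference was not possible. The sets are also unlike: 155 of the 2764 peaks outside and 11 of the 210 in other runs overlapped heart peaks, against 0 of the 22. The windows were chosen by where heart and midbrain peaks are listed, and what this choice adds to the difference was not tested. Of the 22 peaks 7 were called on the midbrain side, where 21.6% of all midbrain-list peaks were. Of the same 22 peaks 13 held 0 heart reads, as did 1134 of all 2786 midbrain-list peaks. All 7 ranked better than the median rank of the midbrain list, 1393.5, which follows from their counts and is no separate result. With 18 midbrain and 0 heart reads the interval began at 0.977, so peaks with 18 or fewer midbrain reads could not be called. Over the midbrain list, better ranks went with more reads (Spearman -0.941 between rank and midbrain reads).

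**Figure D4:**
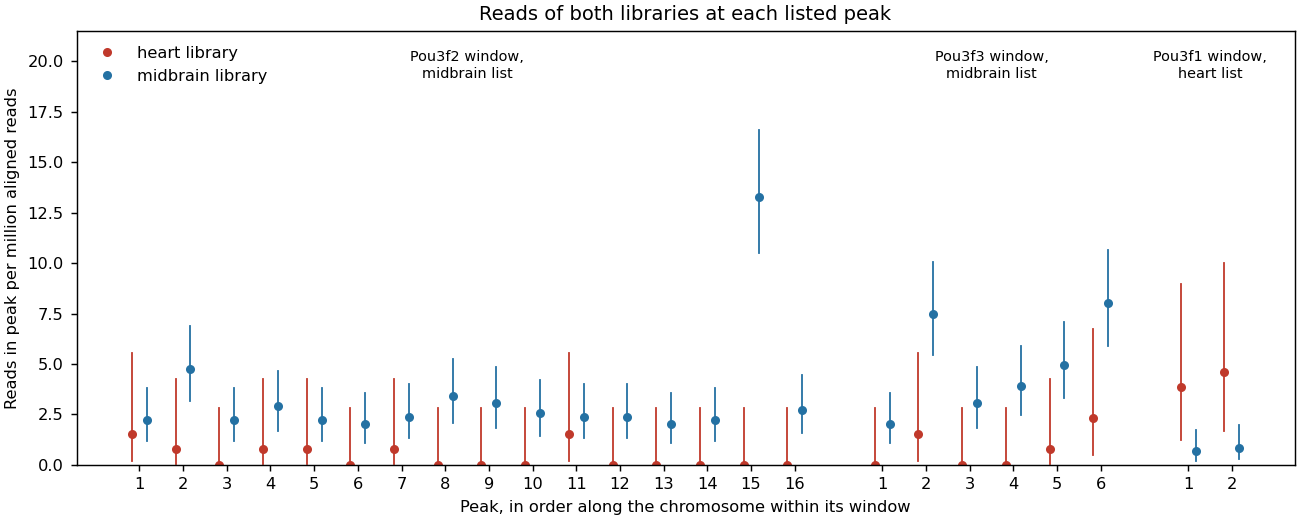
Scaled reads (rpm) in each listed peak of the 3 windows, in order along the chromosome, for the heart and the midbrain library, with exact Poisson 95% intervals. Peak 15 of the Pou3f2 window reaches 13.3 rpm in the midbrain with 0 heart reads, and the 2 Pou3f1 peaks are the only ones with more heart than midbrain rpm.

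The heart library was also read on its own at the midbrain peaks. How the midbrain list was called, and with which control, is not given. The windows were also chosen by where heart and midbrain peaks are listed, so the heart values are a description. Inside the Pou3f2 midbrain peaks heart reads were 1.87 times as dense as in the rest of the window (8 reads, interval 0.799 to 3.72), and inside the Pou3f3 peaks 1.90 times (6 reads, interval 0.691 to 4.18). Over both windows the value was 1.86 (14 reads, interval 1.01 to 3.14). Midbrain reads at the same peaks were 9.74 times (interval 8.63 to 10.97) and 7.95 times (interval 6.77 to 9.29) as dense as the rest of their windows, an excess that follows in part from the listing. All 8 heart reads at the Pou3f2 peaks lay in the run, whose 13 peaks alone gave 2.64 times (interval 1.13 to 5.27). Over all midbrain peaks of either window taken separately the interval included 1. With reads placed 150 bp from the 5 prime end, the heart value was 1.39 (interval 0.507 to 3.06) at the Pou3f2 peaks. At the Pou3f3 peaks it was 1.58 (interval 0.508 to 3.72). Heart values over both windows and for the run were not computed with that placement. Whether their intervals would still exclude 1 was not tested.

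Outside listed peaks the windows also differed between libraries. The Pou3f2 window had 420 midbrain and 255 heart rpm there, a ratio of 1.65 (interval 1.47 to 1.85), and the Pou3f3 window 332 and 217 rpm, a ratio of 1.53 (interval 1.35 to 1.74). The Pou3f1 window leaned the other way, with 124 midbrain and 171 heart rpm and a ratio of 0.727 (interval 0.625 to 0.849). Such leanings were common. Among windows of the Pou3f2 length 43.8% leaned to the midbrain by this rule and 31.2% to the heart. For the Pou3f3 length the shares were 41.5% and 28.9%, and for the Pou3f1 length 36.8% and 24.2%. The size of the Pou3f2 lean was less usual: 4.72% of windows of its length had as high a ratio, against 12.5% for Pou3f3, and 87.9% of windows had as high a ratio as Pou3f1 or higher. At positions at least 1 kb from any peak the ratios were 1.58, 1.45 and 0.728.

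Per length, the lean of the Pou3f2 window lay more in the heart library than in the midbrain library. Heart reads outside its peaks came to 258 rpm per Mb, against a median of 381 over windows of that length, and midbrain reads to 425 against 398. In the Pou3f1 window heart reads came to 573 rpm per Mb against a median of 368, and midbrain reads to 416 against 395. In the Pou3f3 window the midbrain library stood out, with 559 against 396 rpm per Mb, and the heart library had 366 against 377. The read ratio at peaks thus sits on unequal surroundings, whose part in the peak ratios was not tested.

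The Pou3f1 window held the only heart peaks. The peak at 124336656 to 124337337 on chromosome 4 had rank 3178 of 3597 in the heart list, with 5 heart and 4 midbrain reads, 3.83 against 0.681 rpm and a ratio of 0.178 (interval 0.0353 to 0.826). The peak at 124386628 to 124387241 had rank 1181, with 6 heart and 5 midbrain reads, 4.60 against 0.852 rpm and a ratio of 0.185 (interval 0.0447 to 0.728). Both were called on the heart side, as were 89.9% of all heart-list peaks, so this is the usual result for a heart-list peak.

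These heart peaks rest on few reads. Coverage reached 4 reads in each, the median height of the heart list. Pooled, the ratio was 0.182 (interval 0.0666 to 0.482), and after the midbrain library was thinned to as many reads as the heart library it was 0.273 with an interval that reached 1.03. With 99% intervals neither peak was called. The heart library held its most reads per 10 kb, 18, in a step of this window that contains no listed peak, above the 17 in each of the steps with a listed peak.

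**Figure D5:**
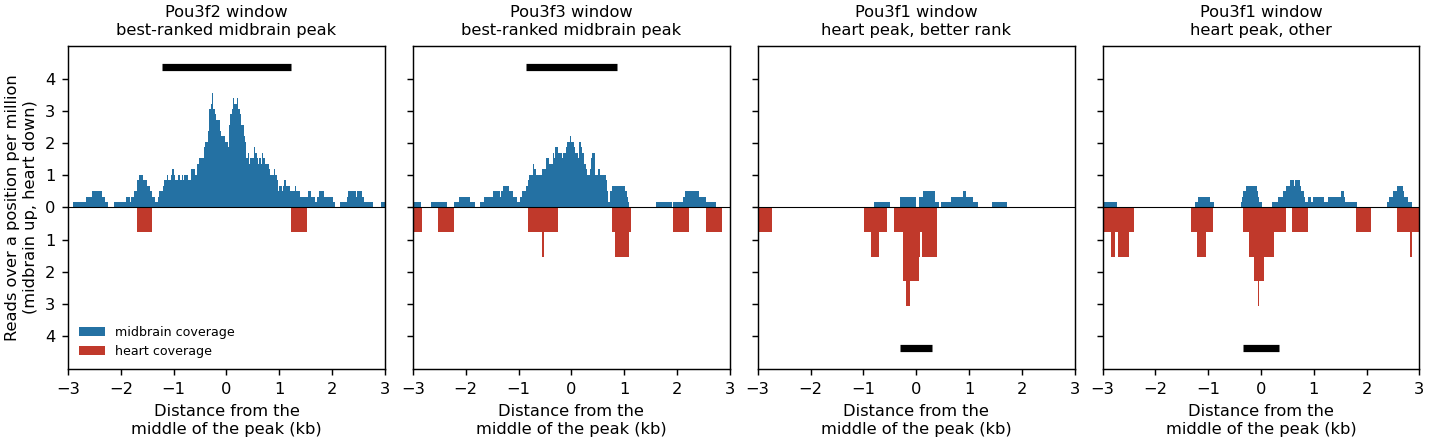
Deposited coverage, in rpm, within 3 kb of the best-ranked midbrain peaks of the Pou3f2 and Pou3f3 windows and of both heart peaks of the Pou3f1 window, midbrain upwards and heart downwards, with listed peaks as black bars. The first peak reaches 21 midbrain reads with no heart coverage inside the bar, and each heart peak reaches 4 heart reads.

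The bounds of the windows set some of these counts. The last midbrain peak below the Pou3f1 window lay 44.6 kb from its bound (rank 2457, 11 midbrain and 1 heart reads), and the first above it lay 83.8 kb away (rank 352, 29 and 2 reads). With 100 kb added on each side the Pou3f1 window would hold 3 midbrain peaks, so the absence of midbrain peaks holds only for the window as drawn. Just below the Pou3f3 window, 85.4 kb from its bound, lay a midbrain peak of rank 242 with 36 midbrain and 0 heart reads, and its last inside peak lies 53.8 kb from the upper bound. The Pou3f2 window has wider margins: its first and last inside peaks lie 204 and 275 kb from the bounds, and the next midbrain peaks outside lie 206 kb below (14 midbrain and 0 heart reads) and 218 kb above (38 and 1).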

How the data were processed

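p300 was measured in 1 heart and 1 midbrain library. The build is mm9, per the submitters' processing notes. The aligned reads the authors deposited count 1 read per line, lengthened to 300 bp in all but 24 heart and 48 midbrain lines, with no repeated position and strand. The coverage track the authors deposited holds signal at 25 bp steps, unscaled, per the file headers, and counts the lengthened reads. The deposited peak lists give position and rank. How peaks were called, and with which control, is not given in the sources used here.

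Reads were placed by moving the 5 prime end by 23 bp (heart) and 32 bp (midbrain), from strand offsets of 46 and 64 bp within peaks, searched from 46 to 500 bp, so that the heart offset lies at the search limit. They were counted with Python 3.11.15, numpy 2.4.6, pandas 2.3.3 and scipy 1.17.1. Intervals are exact, and their computation was tested on simulated data. Peaks count as shared from 1 bp of overlap, and windows for comparison tile chromosomes 1 to 19 and X. Every listed peak of the windows is named, as the naming rule (all heart-list peaks, the 10 best-ranked midbrain peaks per window and the run) covers all of them. Members and lists were chosen with earlier results of these data known. Peak sequences, motif words in peaks and tissue marker genes needed mm9 gene positions or sequence and were not analysed here.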

Additional observations from a re-analysis of the deposited data

Results flagged for a closer look

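The sites below lie outside listed peaks and are given because the comparisons of listed peaks do not use them; they hold more reads than the 3 that a count of 0 allows. Sites were stretches of midbrain coverage of at least 8 reads, the lowest height among the 22 midbrain peaks of the windows, at least 300 bp from any midbrain peak, with stretches up to 300 bp apart taken as 1.

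The Pou3f2 window held 2 such sites, both in the longest gap of the run. The fuller one, on chromosome 4 at 22412113 to 22413587, had 18 midbrain reads (3.07 rpm) and 0 heart reads in the 500 bp around its top, and coverage of 14 reads.

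The Pou3f3 window held 12 such sites, 20 per Mb, against 0.939 per Mb over chromosomes 1 to 19 and X. Most of the 12 lay between 42742813 and 42771112, within or beside the group of peaks, so they were not spread over the window. The fullest, on chromosome 1 at 42756913 to 42757437, had 22 midbrain reads (3.75 rpm) and 1 heart read in the 500 bp around its top, a ratio of 4.89 (interval 0.790 to 202), and coverage of 16 reads. Away from the group of peaks, sites at 42547763 to 42547987 and 42686013 to 42686162 each reached coverage of 9 reads with 9 midbrain and 0 heart reads in 500 bp. Other sites had heart reads: those at 42770963 to 42771112 and 42742813 to 42742837, with coverage of 9 and 8 reads, each held 8 midbrain and 2 heart reads, a ratio of 0.889 (interval 0.177 to 8.59). The Pou3f1 window held no midbrain site of this height.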

How the results depend on the processing

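No paired analysis was possible because each tissue has 1 library. For 25 results 101 alternative values were computed: 87 were close to the reported one (inside its interval, or a count no more than 1.5 times off), 14 were not, and no direction changed. Joining peaks less than 1 kb apart lowered the Pou3f2 window from 16 to 8 midbrain peaks and its run from 13 to 5. Keeping only ranks better than the median of each list left 5 midbrain peaks in the Pou3f2 window, a longest run of 3 and 1 heart peak, itself called, in the Pou3f1 window, and lists of equal length also left 1 heart peak there. The number of called midbrain peaks, 7 as reported, was 2 within 500 bp around peak centres, 4 with reads placed 150 bp from the 5 prime end and 1 with 99% intervals. The Pou3f2 peak ratio of 8.61 became 17.7 with the better ranks only, inside the wide interval of the former. Both heart peaks were called as reported, 1 after thinning the midbrain library to the heart depth and 0 with 99% intervals. Windows widened by 100 kb, chosen after seeing the data, gave 3 midbrain peaks at Pou3f1. The median height of the 22 midbrain peaks, 1.70 rpm, was 1.08 as mean coverage, which is another quantity. The Pou3f1 alternatives on reads and the moved comparison windows were also chosen after seeing the data. Motif words in peaks were not run. The heart library, at 6 reads per listed heart peak in the median, limits the precision of the ratios at midbrain peaks, and the midbrain counts of 4 and 5 reads limit it at the Pou3f1 heart peaks.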

Other observations

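The Pou3f2 window lies in a stretch of chromosome 4 without listed heart peaks. The nearest heart peaks lay 8439.75 kb below and 8132.1 kb above its bounds, and the 17.6 Mb between them is the sixth longest stretch between neighbouring heart peaks among 3577 on chromosomes 1 to 19 and X, where the median is 206 kb. It held 32 midbrain peaks, 16 of them in the Pou3f2 window. The Pou3f3 window lies in a shorter such stretch of 3.03 Mb, place 188, with 12 midbrain peaks. The stretch without midbrain peaks around the Pou3f1 window was 0.428 Mb long, place 1141 of 2766, with 2 heart peaks.

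The promoter of Pou3f4, the class III POU gene on chromosome X, held 3 matches to CCAAT in the 250 bases before its start, 1 on the strand of the gene and 2 on the other. It held no match to the octamer ATGCAAAT or to TAATTA.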
